A study of Schmidtea mediterranea with 24 samples.

Results

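The contigs described here are the 105 assembled planarian transcripts, of 26563 in the count table, whose level was higher after RNA interference (RNAi) of myoD and also after RNAi of nkx1-1. They were chosen from the measured values. Counts were scaled to CPM, the count over the library total times 1e+06. M was the log2 ratio of the mean CPM of myoD RNAi animals to that of their controls, with a pseudocount of 0.5 CPM added to each mean, and N was the same ratio for nkx1-1 RNAi animals and their controls. A contig was taken if its mean over the 24 libraries was at least 2 CPM, if M and N were each at least 0.4, and if all myoD RNAi animals had more CPM than all controls of their schedule. M, N and everything else measured in those same contrasts are therefore given as a description of what the choice picked. Calls of a fitted model in these contrasts are not a test of the members.

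The animals were Schmidtea mediterranea of the asexual strain CIW4, an intact flatworm that regrows from small pieces. Double-stranded RNA (dsRNA) made in vitro was fed to them in liver. The groups were 6 myoD RNAi animals and 6 control animals given 10 feedings in 7 weeks, and 7 nkx1-1 RNAi animals and 5 control animals given 12 feedings in 9 weeks. Control dsRNA was that of the Caenorhabditis elegans gene unc-22, so all 24 animals had the liver and dsRNA in common.

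The body wall of a planarian holds layers of muscle fibres that run in different directions. The transcription factor gene myoD is known to be needed for the longitudinal fibres and nkx1-1 for the circular fibres. Planarian muscle cells also express many of the signalling genes that give other cells positional information, so loss of a fibre class can alter more than contraction. The contigs examined here are those whose levels were higher after RNAi of myoD and also after RNAi of nkx1-1.

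Polyadenylated RNA was sequenced, 1 library per replicate, at 9757113 to 18136698 counts per library. The tissue field gives individual intact animals, and the titles give only schedule, target and a replicate number. The extraction text speaks of wounds of tail fragments pooled for each replicate. The libraries are taken here as single animals. Library nkx1-1 RNAi replicate 1 stood apart from the rest of its group, and N and the counts of the nkx1-1 pair that rest on it are also given without it. No gene names accompany the contig IDs in the files used, so members are given by ID, their known functions and sequences were not used, and neither the level of the targeted genes nor any tissue marker was checked. Contig lengths were not used either, so levels are compared between animals and not between contigs. In RNA from whole animals, fewer or more cells of a type and less or more RNA per cell cannot be told apart.

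Of 13822 contigs with a mean of at least 2 CPM, 306 had M of at least 0.4 and 307 had N of at least 0.4. The 2 conditions met in 139 contigs, and 34 of these were dropped because a myoD RNAi animal and a control overlapped, which left 105. At the edge of the choice, the lowest M of a member was 0.41 and the highest M of a contig that failed by M alone was 0.40. The same values for N were 0.41 and 0.40. The lowest mean level of a member was 2.02 CPM, and the highest of a contig that failed by level alone was 1.93 CPM.

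Within the group, M ran from 0.41 to 2.27 with a median of 0.74, against a median of -0.02 over the 13822 contigs. N ran from 0.41 to 1.94 with a median of 0.60, against a median of 0.03 over the same contigs. Without nkx1-1 RNAi replicate 1, N ran from 0.44 to 2.12 with a median of 0.67, against 0.06 over the same contigs. After myoD RNAi, M was at least 1 (2-fold with the pseudocount added to both means) in 25 members, where 0.224% of the 13822 contigs had such an M. After nkx1-1 RNAi, N reached 1 in 11 members, where 0.159% of contigs did, and each of the 11 also had M of at least 1, where 0.0941% of contigs had both. Without replicate 1, N reached 1 in 17 members (0.174% of contigs), of which 16 also had M of at least 1 (0.116% of contigs). The thresholds fix the low end of these ranges, so the spread above them is what the values add. On this scale most members differed by less than 2-fold, and a short tail went beyond that.

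Members with a large M also had a large N. Over the 105 contigs Pearson's r of M and N was 0.894, given as a description, since both values are cut off at 0.4 and the contigs share libraries. M and N hardly followed the level. The 35 members below 5 CPM had a median M of 0.76 and N of 0.61. The 36 members from 5 to 20 CPM had 0.73 and 0.61, and the 34 at or above 20 CPM had 0.70 and 0.57. The pseudocount lowers ratios most at low CPM, so these medians do not show whether ratios without it followed the level. For dd_Smed_v4_12815_0_1, at a mean of 3.84 CPM, M was 2.27 and edgeR's log2 fold change was 2.77. For dd_Smed_v4_1140_0_1, at 792 CPM, they were 0.41 and 0.42. Every member was counted in every library, the lowest count being 3.

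**Figure D1:**
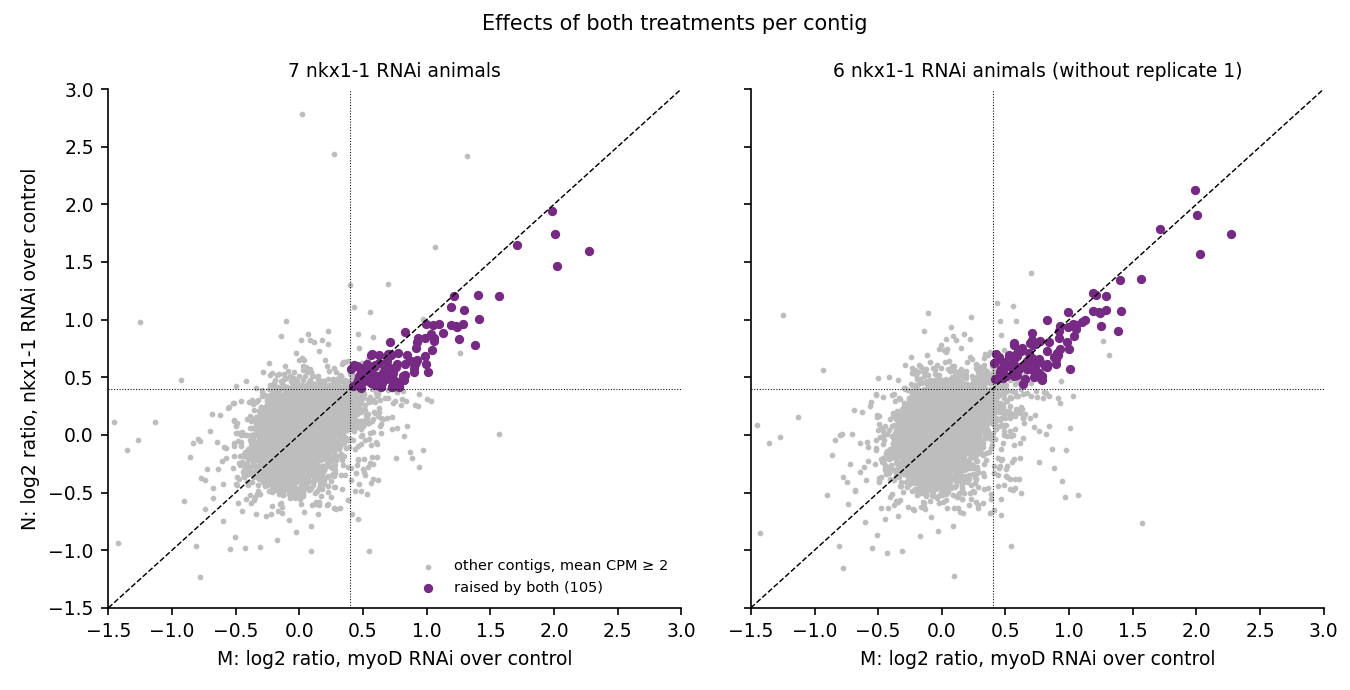
Each point is a contig with a mean of at least 2 CPM, placed by M (x axis, log2 ratio of myoD RNAi to control) and N (y axis, log2 ratio of nkx1-1 RNAi to control), with 7 nkx1-1 RNAi animals at left and 6, without replicate 1, at right. The 105 members (purple) fill the corner beyond 0.4 on both axes (dotted lines) and mostly lie below the dashed line of equal ratios, closer to it at right; 10 other contigs lie outside the axes.

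The largest M belonged to dd_Smed_v4_12815_0_1. It was at 4.96 to 7.82 CPM in the 6 myoD RNAi animals with a median of 6.20, against 0.221 to 1.21 CPM in the 6 controls with a median of 1.06, which gave M of 2.27. In the nkx1-1 RNAi animals it was at 1.64 to 10.0 CPM with a median of 6.06, against 1.30, 1.37, 1.39, 1.83 and 2.19 CPM in the 12-feeding controls, which gave N of 1.59, or 1.75 without replicate 1. The myoD groups were well apart, though on few reads, with 86 to 113 counts in myoD RNAi animals and 3 to 21 in their controls. The size of its M is therefore less certain than that of members with more counts. The nkx1-1 groups overlapped through replicate 1 alone, at 1.64 CPM, since the next lowest nkx1-1 RNAi animal was at 4.46 CPM.

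The second largest M was that of dd_Smed_v4_1636_0_1, which varied more between animals of a group. The myoD RNAi animals were at 27.8 to 52.9 CPM with a median of 39.8, against 7.28 to 12.9 CPM in the controls with a median of 8.99 (M of 2.03). The nkx1-1 RNAi animals ranged from 15.3 to 55.0 CPM with a median of 31.2, against 9.70, 10.2, 11.5, 9.54 and 15.9 CPM in the 12-feeding controls (N of 1.46, or 1.57 without replicate 1). Here the lowest nkx1-1 RNAi animal was replicate 3, at 15.3 CPM, below the highest control.

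The largest N was that of dd_Smed_v4_13700_0_1. Its level was 1.43 CPM in nkx1-1 RNAi replicate 1 and 9.33, 9.05, 9.21, 10.5, 9.53 and 8.52 CPM in replicates 2 to 7, against 3.21, 1.72, 1.12, 1.14 and 1.62 CPM in the 12-feeding controls. N was 1.94 with all 7 animals and 2.12 without replicate 1. In the myoD pair it was at 5.08 to 8.10 CPM with a median of 6.14, against 0.922 to 1.49 CPM in controls with a median of 1.21 (M of 1.99). So 6 of 7 nkx1-1 RNAi animals lay within a narrow band far above the controls, and the seventh lay among the controls.

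The same split recurred in dd_Smed_v4_12996_0_1, which had the second largest N. Its level was 4.64 CPM in nkx1-1 RNAi replicate 1 and 18.4 to 22.2 CPM in the other 6, against 6.49, 5.58, 3.44, 3.43 and 5.57 CPM in the 12-feeding controls (N of 1.74, or 1.90 without replicate 1). The myoD RNAi animals were at 12.4 to 16.0 CPM with a median of 14.6, against 2.72 to 4.09 CPM in the controls with a median of 3.12 (M of 2.01).

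The 2 members with the highest mean CPM are given next. For dd_Smed_v4_1140_0_1, the myoD RNAi animals were at 779 to 887 CPM with a median of 837, against 611 to 648 CPM in the controls with a median of 630 (M of 0.41, the lowest of any member). Its nkx1-1 RNAi animals were at 745 CPM in replicate 1 and 915 to 1095 CPM in the other 6, against 643, 661, 694, 694 and 630 CPM in the 12-feeding controls (N of 0.57, or 0.63 without replicate 1). All 7 nkx1-1 RNAi animals were above all 5 controls, with replicate 1 nearest to them. For dd_Smed_v4_1434_0_1, the myoD RNAi animals were at 205 to 267 CPM with a median of 248, against 143 to 187 CPM in the controls with a median of 164 (M of 0.56). Its nkx1-1 RNAi animals were at 141 CPM in replicate 1 and 251 to 312 CPM in the other 6, against 217, 202, 157, 186 and 207 CPM in the 12-feeding controls (N of 0.48, or 0.60 without replicate 1). Replicate 1 was then below every control.

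**Figure D2:**
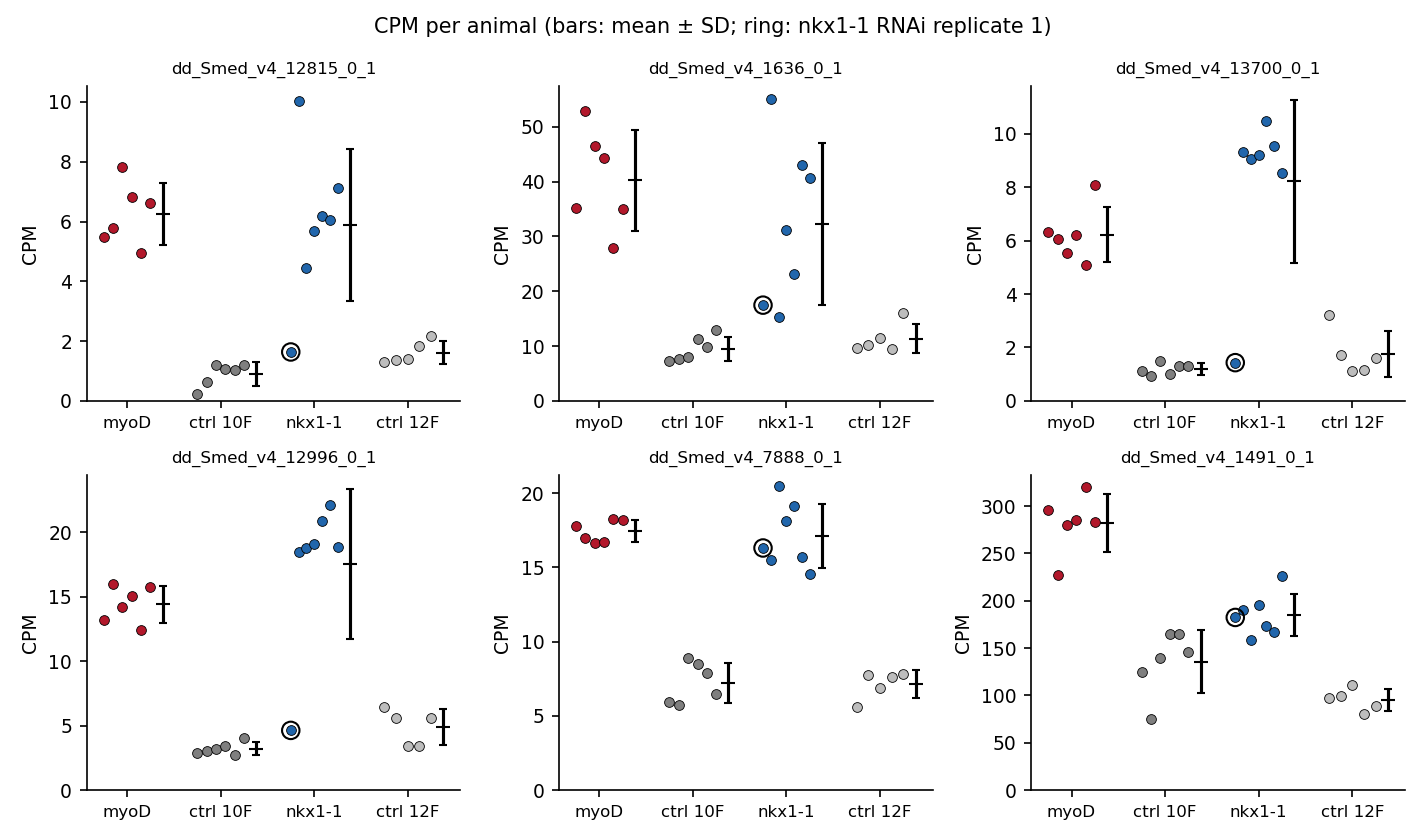
CPM (y axis) of 6 members in every animal by group (x axis: myoD RNAi, its 10-feeding control, nkx1-1 RNAi, its 12-feeding control), with mean ± SD as bars and nkx1-1 RNAi replicate 1 ringed. In dd_Smed_v4_12815_0_1, dd_Smed_v4_13700_0_1 and dd_Smed_v4_12996_0_1 the ringed animal sits among the controls, whereas in dd_Smed_v4_7888_0_1 and dd_Smed_v4_1491_0_1 it sits with the other nkx1-1 RNAi animals.

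To see which animals carried the pattern, each animal was given the mean, over the 105 members, of its log2(CPM + 0.5) minus the mean of the same quantity in the controls of its own schedule. The myoD RNAi animals had 0.82, 0.87, 0.89, 0.89, 0.77 and 0.85 on this scale (mean 0.85 ± 0.0463, SD, n = 6), against -0.06 to 0.06 in their 6 controls. The nkx1-1 RNAi animals had -0.0123 in replicate 1 and 0.80, 0.68, 0.78, 0.83, 0.81 and 0.82 in replicates 2 to 7 (mean 0.67 ± 0.306, SD, n = 7), against -0.08 to 0.08 in their 5 controls. Without replicate 1 the nkx1-1 mean was 0.79 ± 0.0540 (SD, n = 6). Thus 12 of the 13 RNAi animals formed an upper band. The rule itself placed the 6 myoD RNAi animals above their controls and required a higher mean in the nkx1-1 RNAi group. On this scale, by library totals, nkx1-1 RNAi replicate 1 sat within the control range, and with the other scaling given below it sat just above it.

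The members took 0.406% to 0.422% of all counts in myoD RNAi animals, with a median of 0.417%, against 0.234% to 0.259% in their controls, with a median of 0.246%. They took 0.281% in nkx1-1 RNAi replicate 1 and 0.419% to 0.451% in the other 6 nkx1-1 RNAi animals, against 0.256% to 0.267% in the 12-feeding controls. On this measure, which is weighted to abundant contigs, replicate 1 was above all 5 controls and far below its group.

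**Figure D3:**
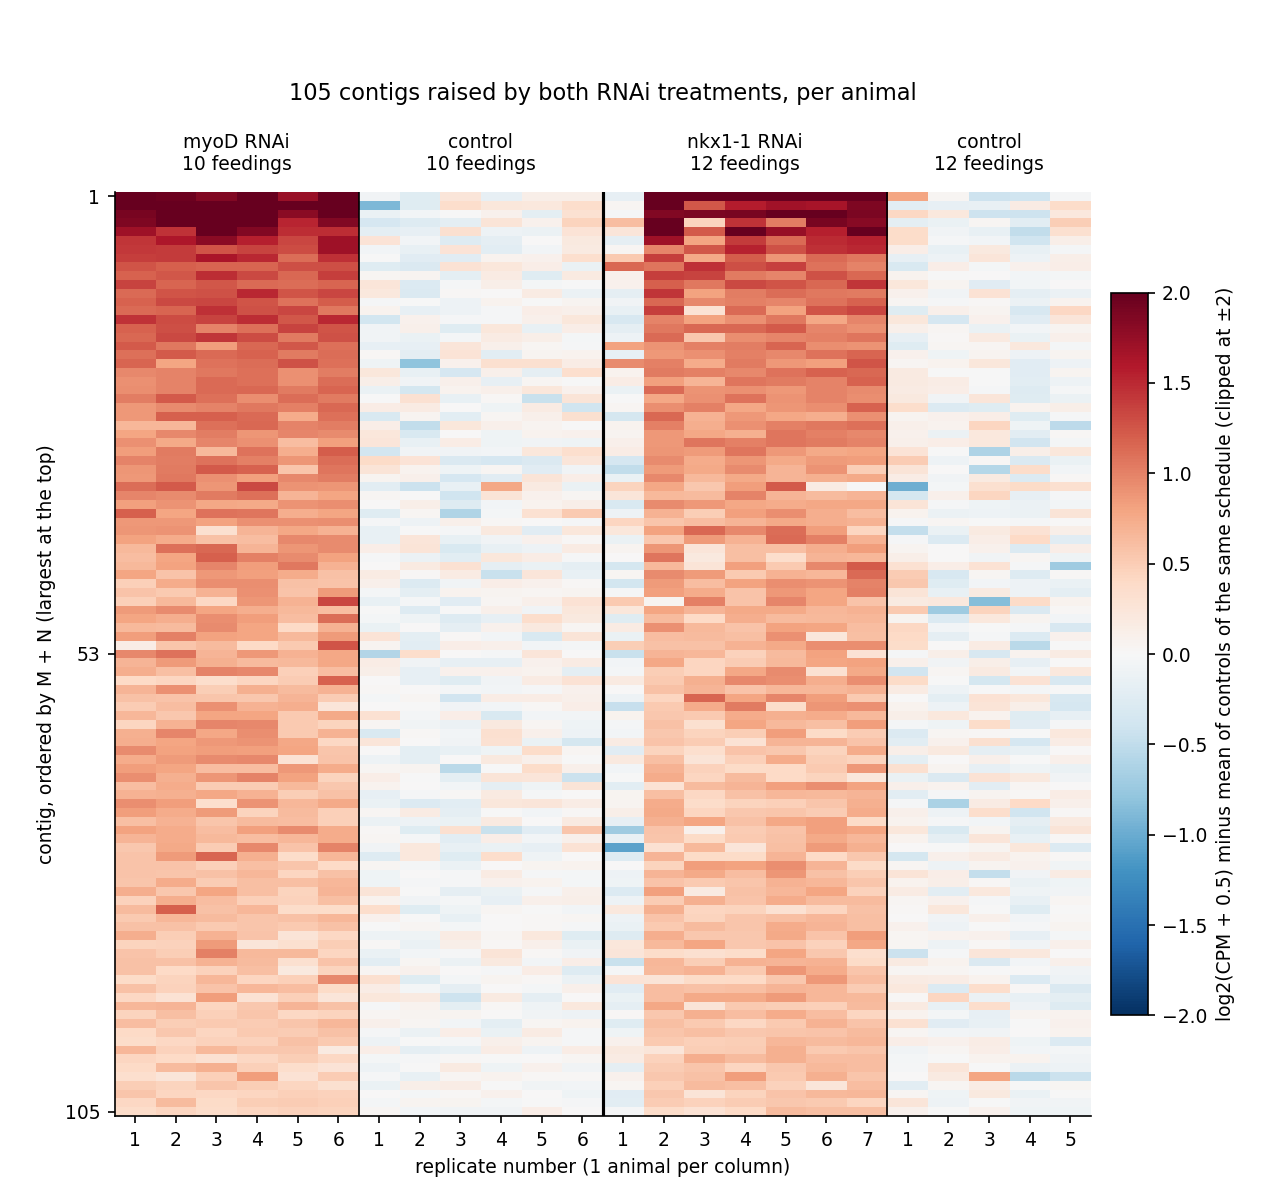
Rows are the 105 members, ordered by M + N, columns are the 24 animals by group and replicate number, and colour is log2(CPM + 0.5) minus the mean of the controls of the same schedule (red higher, blue lower, clipped at ±2). Every myoD RNAi column and nkx1-1 RNAi columns 2 to 7 are red over nearly all rows, while nkx1-1 RNAi column 1 has the pale mixed colours of a control with a few red rows.

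**Figure D4:**
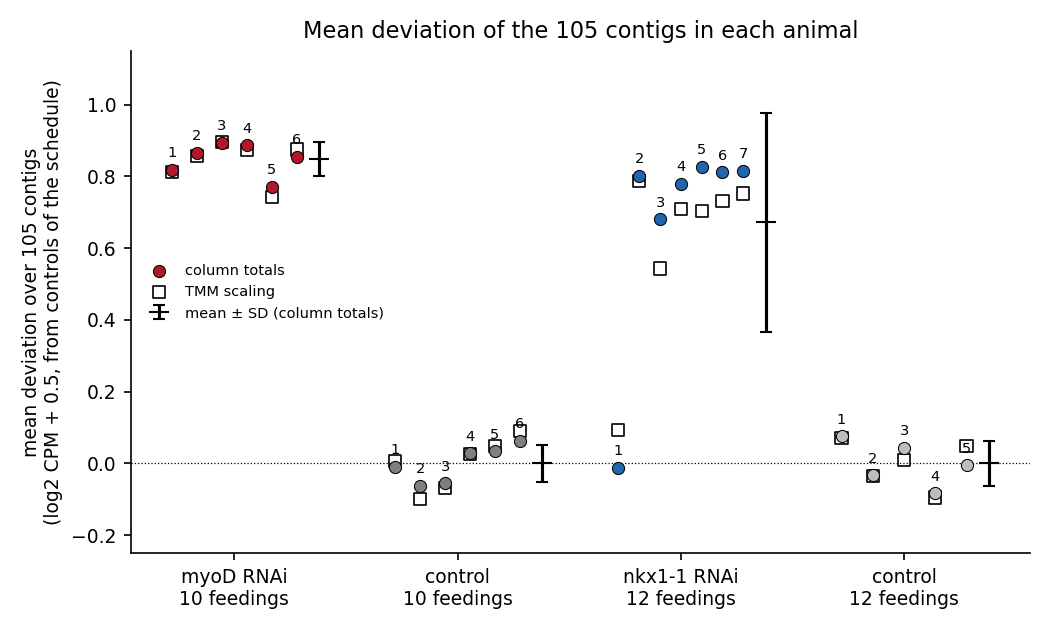
The y axis is the mean of each animal's deviation over the 105 members (log2 scale), with animals numbered by replicate within each group on the x axis, filled points scaled by library totals, open squares scaled by TMM, and bars for mean ± SD. The myoD RNAi animals lie at 0.77 to 0.89, nkx1-1 RNAi animals 2 to 7 at 0.68 to 0.83, and nkx1-1 RNAi replicate 1 at -0.0123 beside controls near 0.

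Contig by contig, nkx1-1 RNAi replicate 1 was above all 5 of its controls in 15 members, where 4.84% of the 13822 contigs were, below all 5 in 21, where 36.6% were, and between them in 69. It was the lowest of the 7 nkx1-1 RNAi animals in 99 members, against 45.5% of contigs. The other 6 animals were above all controls in far more members. Replicates 2, 3 and 4 were so in 103, 96 and 104 members, where 15.3%, 42.3% and 26.4% of contigs were, and replicates 5, 6 and 7 in 104, 102 and 102 members, where 38.4%, 29% and 27.6% were.

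The contrast with its group was present under another scaling as well. Contig dd_Smed_v4_4_1_1, which is no member and was picked once its values were known, made up 6.79% of all counts in nkx1-1 RNAi replicate 1 and 0.0393% to 0.781% in the other 23 libraries, and its share lowers the CPM of every other contig there. With trimmed-mean (TMM) scaling, which sets such contigs aside, replicate 1 had a mean deviation of 0.09, whereas the rest of the nkx1-1 RNAi animals had 0.54 to 0.79 and the 12-feeding controls -0.09 to 0.07, so it was then slightly above the highest control. It was above all controls in 27 members, where 15.8% of contigs were, and below all controls in 5, where 16.8% were. By library totals those counts were 15 and 21, so the balance of higher and lower turned with the scaling. That it was the lowest of its group in most members did not turn, with 88 under TMM, where 11.9% of contigs were.

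Outside the members, values of the same library were as follows. Contig dd_Smed_v4_19327_0_1, also no member and singled out afterwards because it was high in all 7 nkx1-1 RNAi animals, was at 158 CPM in replicate 1 and 73.2 to 145 CPM in the other 6 nkx1-1 RNAi animals, where the 12-feeding controls had 2.14 to 2.91 CPM. So that replicate 1 had no part in the choice, the rule and its mirror image were also applied with N taken without it. The mirror image asked for M and N of at most -0.4 and every myoD RNAi animal below every control. This setting was added after seeing the data. The other 6 nkx1-1 RNAi animals and the controls did have a part in the choice. Some gap between those 6 and replicate 1 can therefore come from the choice. For the 122 contigs raised by both treatments, the mean deviation with TMM scaling was 0.07 in replicate 1 and 0.51 to 0.74 in the other 6, against -0.08 to 0.06 in the 12-feeding controls. For the 6 contigs lowered by both, it was -0.37 in replicate 1 and -0.92 to -0.47 in the other 6, against -0.20 to 0.20 in the controls. With TMM scaling, replicate 1 was thus near the controls for the raised contigs, and between the controls and its group for the 6 lowered ones. By library totals the raised contigs had -0.03 in replicate 1, against 0.64 to 0.78 in the other 6. The 6 lowered contigs then had -0.48 in replicate 1, within the -0.80 to -0.44 of the other 6. For the 7 contigs lowered when all animals were used, replicate 1 was within its group under both scalings (TMM: -0.455, against -0.811 to -0.401). Its place for the lowered contigs thus depended on scaling and choice.

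A minority of members were raised in that animal too. In 12 members all 7 nkx1-1 RNAi animals lay above all 5 controls, where 0.543% of the 13822 contigs did. Without replicate 1 the count was 91, where 4.5% did, and 79 members overlapped solely through replicate 1. Of the 12, 3 members picked out after their values were seen were nearly as high in replicate 1 as in the rest. Contig dd_Smed_v4_7888_0_1 was at 16.3 CPM in replicate 1 and 14.6 to 20.5 CPM in the other 6, against 5.62, 7.78, 6.88, 7.60 and 7.83 CPM in the 12-feeding controls. Contig dd_Smed_v4_8444_0_1 was at 55.4 CPM in replicate 1 and 58.6 to 70.9 CPM in the other 6, against 26.4, 32.3, 32.1, 36.3 and 30.5 CPM in the controls. Contig dd_Smed_v4_1491_0_1 was at 182 CPM in replicate 1 and 159 to 227 CPM in the other 6, against 97.3, 99.4, 111, 80.7 and 88.6 CPM in the controls.

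Those 3 members were also separate in the myoD pair, as the rule required. Contig dd_Smed_v4_7888_0_1 was at 16.6 to 18.2 CPM in myoD RNAi animals with a median of 17.4, against 5.74 to 8.87 CPM in controls with a median of 7.19. Contig dd_Smed_v4_8444_0_1 was at 55.2 to 73.6 CPM with a median of 67.8, against 27.4 to 36.4 CPM in controls with a median of 30.9. Contig dd_Smed_v4_1491_0_1 was at 227 to 320 CPM with a median of 284, against 75.3 to 165 CPM in controls with a median of 143. For the first of them M and N were nearly equal, at 1.21 and 1.20. At the other end, the lowest deviation of replicate 1 was in dd_Smed_v4_9634_0_2, at -1.07, where it had 0.887 CPM and the other 6 had 2.92 to 4.73 CPM, against 1.90 to 2.91 CPM in the 12-feeding controls. The source of the difference between replicate 1 and its group was not tested.

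**Figure D5:**
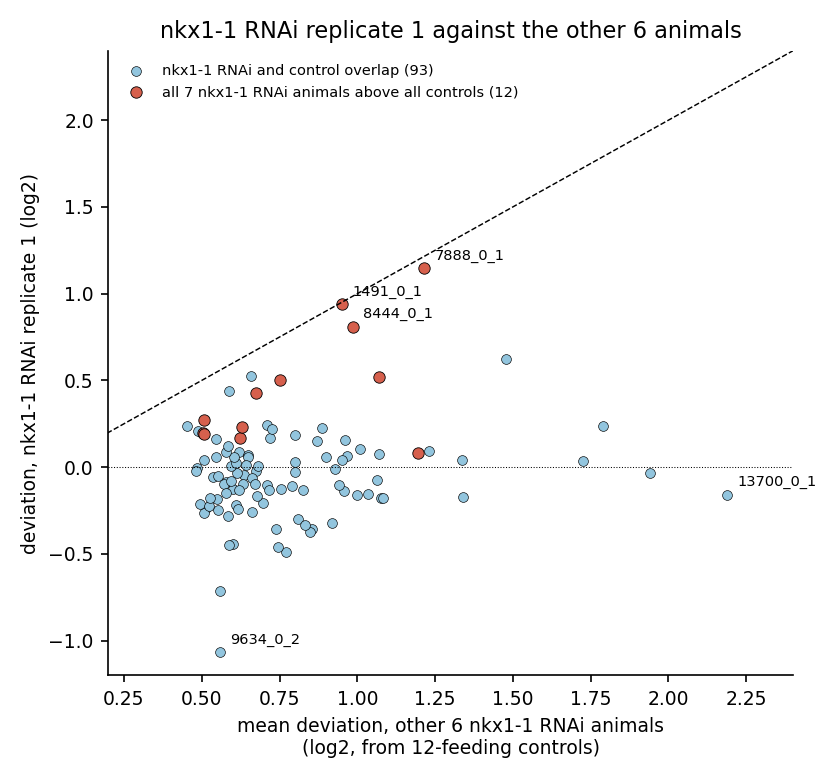
Each point is a member, placed by its mean deviation from the 12-feeding controls in the other 6 nkx1-1 RNAi animals (x axis, log2) and by its deviation in replicate 1 (y axis, log2), with equality dashed. Most points scatter around 0 on the y axis whatever their x value, and among the 12 members with no overlap (red) dd_Smed_v4_7888_0_1, dd_Smed_v4_1491_0_1 and dd_Smed_v4_8444_0_1 reach near the dashed line.

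Apart from that library, the members' ratios were alike from animal to animal. Pearson's r between an animal's 105 deviations and M was 0.173 in nkx1-1 RNAi replicate 1 and 0.572 to 0.903 in the other 6, given as a description over contigs that share a library. The lowest of the 6, 0.572, was replicate 3, which also had the smallest mean deviation of the 6. For the myoD RNAi animals r with N, taken without replicate 1, was 0.805 to 0.853.

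How far members varied together within groups depended on the same library. The mean r over pairs of members, after subtracting group means, was 0.457 over 24 libraries, against 0.107 over pairs of all 13822 contigs. Without nkx1-1 RNAi replicate 1 it was 0.0755, against 0.0531 for all contigs. In nkx1-1 RNAi animals alone it was 0.720 (0.200 for all contigs), and 0.0867 without replicate 1 (0.0732). It was 0.0490 in myoD RNAi animals (0.0360 for all contigs), 0.0959 in 12-feeding controls (0.0410) and 0.0629 in 10-feeding controls (0.0478). By library totals, most of the shared variation within groups thus rested on that 1 library. Its scaling enters these r values, also those of all contigs, and they were not computed with TMM scaling.

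M exceeded N in 86 members and N exceeded M in 19, and the median of N minus M was -0.14. Without nkx1-1 RNAi replicate 1 the counts were 65 and 40 and the median was -0.06, so part of the lower N lay in that library. The rule asked for no overlap in the myoD pair and not in the nkx1-1 pair. It dropped 34 contigs that passed both thresholds, so M above N may in part come from the choice. Both effects had served to choose the members, so their difference is a description, and calls on it do not test the members. In edgeR's fit of that difference 1 member passed an adjusted p of 0.05 with a smaller nkx1-1 effect, where 0.256% of 17159 contigs did.

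The smallest N minus M was -0.68, in dd_Smed_v4_12815_0_1, whose values stand above. The next was -0.60, in dd_Smed_v4_13603_0_1. It was at 5.54 to 6.76 CPM in myoD RNAi animals with a median of 6.21, against 1.47 to 2.47 CPM in controls with a median of 2.10 (M of 1.38). It was at 1.57 CPM in nkx1-1 RNAi replicate 1 and 3.92 to 4.88 CPM in the other 6, against 2.53, 1.54, 2.25, 1.71 and 2.54 CPM in the 12-feeding controls (N of 0.78, or 0.90 without replicate 1). Leaving out replicate 1 narrows its gap between M and N without closing it.

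The largest N minus M was 0.18, in dd_Smed_v4_28656_0_1, followed by 0.16 in dd_Smed_v4_1140_0_1. Contig dd_Smed_v4_28656_0_1 was at 2.30 to 3.77 CPM in myoD RNAi animals with a median of 2.55, against 1.28 to 2.28 CPM in controls with a median of 2.05 (M of 0.43). It was at 1.5 CPM in nkx1-1 RNAi replicate 1 and 2.87 to 3.45 CPM in the other 6, against 1.73, 2.44, 1.52, 1.48 and 1.41 CPM in the 12-feeding controls (N of 0.61, or 0.70 without replicate 1). The lowest myoD RNAi animal was just above the highest control, and this was the 1 member of 105 not called in that pair by edgeR.

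Read against all contigs, the calls of the fitted model repeat the choice and add nothing to it. edgeR's quasi-likelihood test called 104 of 105 members higher in the myoD pair (5.16% of 16352 contigs were called higher) and 75 in the nkx1-1 pair (1.79% of 16598). Without nkx1-1 RNAi replicate 1 the nkx1-1 count was 95 (3.13% of contigs), and without 12-feeding control replicate 4 it was 47 (0.621% of contigs). In the authors' deposited tables, 102 members had an adjusted p below 0.05 and a fold above 1 for myoD (2.72% of contigs) and 71 for nkx1-1 (0.767%). The members' folds in the authors' deposited tables were 1.33 to 6.99 for myoD with a median of 1.78, and 1.29 to 4.45 for nkx1-1 with a median of 1.51.

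The 12-feeding and 10-feeding controls give a comparison that the rule did not use, although the same libraries stand in its denominators. It shows how the members' levels differed between animals fed control dsRNA on the longer and on the shorter schedule. edgeR called 15 of 105 members higher in 12-feeding controls and 5 lower, at an adjusted p below 0.05 over 16262 contigs. That is 14.3% and 4.76% of members, where 18.2% of contigs were called higher and 16.8% lower. The members' median log2 fold change was 0.07, against -0.01 over all contigs tested, and 70 of the 105 were positive. Both shares of members lay below those of contigs at large. The members' median SE, 0.125, was above that of all contigs tested, 0.0893. Without 12-feeding control replicate 3, 17 members were called higher (21.4% of contigs) and 6 lower (21.1%). Without 12-feeding control replicate 5, 9 members were called higher (14.7% of contigs) and 2 lower (13.1%). Without 12-feeding control replicate 4, 3 members were called lower (14.7% of contigs), and without 10-feeding control replicates 4, 5 or 6 in turn, 2 were (15.4%, 15.3% and 14.7% of contigs). Feedings, weeks and any batch that went with the schedule cannot be told apart here. The p-values set the difference against the spread between libraries of a group and do not cover variation between schedules.

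Among the 15, dd_Smed_v4_5406_0_1 had the largest change. It was at 42.3, 43.0, 20.3, 48.6 and 39.2 CPM in 12-feeding controls, against 17.9 to 25.7 CPM in 10-feeding controls with a median of 20.9. Only 12-feeding control replicate 3 overlapped the 10-feeding controls. The log2 fold change was 0.91 ± 0.17 (SE; adjusted p = 0.000665, edgeR). Its RNAi levels were 38.7 to 75.3 CPM in nkx1-1 RNAi animals and 28.1 to 53.8 CPM in myoD RNAi animals, so the 12-feeding controls lay within the range of the myoD RNAi animals in all but replicate 3. The second largest was dd_Smed_v4_12815_0_1, at 0.85 ± 0.28 (SE; adjusted p = 0.0265, edgeR), with every 12-feeding control above every 10-feeding control in CPM. This contig had few reads, at 21 to 32 counts in 12-feeding controls and 3 to 21 in 10-feeding controls. Its call was lost in 4 of 18 alternative settings, with adjusted p of 0.0138 to 0.0857 by edgeR or DESeq2.

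Among the 5 called lower, dd_Smed_v4_1491_0_1 had the largest change, at -0.47 ± 0.16 (SE; adjusted p = 0.0288, edgeR). It was at 97.3, 99.4, 111, 80.7 and 88.6 CPM in 12-feeding controls, against 75.3 to 165 CPM in 10-feeding controls with a median of 143. The groups overlapped through a low 10-feeding control, replicate 2, and the call was lost in 7 of 18 settings, with adjusted p up to 0.0817 by edgeR or DESeq2. Next was dd_Smed_v4_13110_0_1, at -0.40 ± 0.11 (SE; adjusted p = 0.00861, edgeR). It was at 7.91, 5.94, 8.13, 6.51 and 6.63 CPM in 12-feeding controls, against 8.30 to 11.4 CPM in 10-feeding controls with a median of 9.34, with no overlap. This call held in all 18 settings.

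In the RNAi animals dd_Smed_v4_13110_0_1 was at 5.66 CPM in nkx1-1 RNAi replicate 1 and 8.0 to 12.7 CPM in the other 6 nkx1-1 RNAi animals (N of 0.49, or 0.59 without replicate 1), and at 13.0 to 16.7 CPM in myoD RNAi animals (M of 0.63). Its nkx1-1 RNAi animals thus spanned the range of the 10-feeding controls.

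The IDs name an assembly component, a set of contigs that the assembler joined, before the number of the contig. Of the members, 102 were alone in their component in the table and 3 shared one with other contigs, which is 2.86% of members, where 1.86% of the 13822 contigs shared one. In 2 of the 3 the partner contigs had ratios near 0. In the third, the partner dd_Smed_v4_4737_0_1, at a mean of 0.560 CPM, had M of 0.73 and N of 0.79, and the member dd_Smed_v4_4737_1_1 had M of 0.82 and N of 0.48. Contig dd_Smed_v4_2712_2_1 was at 3.51 to 5.12 CPM in myoD RNAi animals with a median of 4.30, against 1.56 to 2.55 CPM in controls with a median of 2.08 (M of 0.90). Its nkx1-1 RNAi animals were at 2.66 to 5.12 CPM with a median of 4.10, against 2.66, 2.55, 2.71, 2.00 and 2.82 CPM in the 12-feeding controls (N of 0.58, or 0.66 without replicate 1). Its lowest nkx1-1 RNAi animal, replicate 1, lay within the range of the controls. Its partners dd_Smed_v4_2712_0_1 and dd_Smed_v4_2712_3_1 had M of 0.06 and 0.02 and N of 0.06 and -0.01.

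Contig dd_Smed_v4_3900_0_1 was at 3.96 to 9.06 CPM in myoD RNAi animals with a median of 5.31, against 2.98 to 3.90 CPM in controls with a median of 3.54 (M of 0.62). Its nkx1-1 RNAi animals were at 4.30 to 5.99 CPM with a median of 5.02, against 3.89, 2.91, 3.31, 1.83 and 2.89 CPM in the 12-feeding controls (N of 0.69, or 0.73 without replicate 1). All 7 nkx1-1 RNAi animals, replicate 1 included, were above the controls. Its partner dd_Smed_v4_3900_1_1 had M of 0.03 and N of 0.01. Reads that such contigs share could be counted to either, so these values are less certain than those of members alone in a component.

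The pattern shaded off into contigs outside the rule. The mean profile of the members over 24 libraries had a median Pearson's r of 0.908 with the members themselves (0.687 to 0.995), and 62 members reached 0.9. So did 62 of 13717 contigs outside the group, or 0.452%. The 2 most alike were dd_Smed_v4_2824_0_1 with r of 0.962, M of 0.35 and N of 0.29, and dd_Smed_v4_6458_0_1 with r of 0.955, M of 0.50 and N of 0.37. Both had every myoD RNAi animal above every control and N below the 0.4 that the rule asked. Without nkx1-1 RNAi replicate 1, N was 0.34 in the first and 0.44, past the threshold, in dd_Smed_v4_6458_0_1. These r values are a description over 24 libraries that share their groups and nkx1-1 RNAi replicate 1.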

How the data were processed

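Counts of reads per contig were deposited for 24 libraries, unnormalised, and for each RNAi group a table against its own control whose linear fold changes (ratio of normalised means) and p-values come from DESeq, per the file headers and the submitters' processing notes. Those notes also name CASAVA, cutadapt 1.8, Bowtie 1.1.1 and SAMtools. How strand and multiple matches were handled is not given in the sources read, so overlapping or similar contigs may share reads.

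CPM, M, N and the deviations were computed with pandas 2.3.3 from the counts. edgeR 4.0.16 (glmQLFit and glmQLFTest, TMM, filterByExpr, Benjamini-Hochberg, 0.05) was run on all contigs past its filter, each pair of groups alone, and on 24 libraries for the difference of effects. The SE given with edgeR's values was the size of the log2 fold change over the square root of the F statistic. DESeq2 1.42.0 was an alternative. All 105 members passed the filters. On simulated counts with seeded changes, 73.1%, 98.5% and 98.5% of 1.5-fold, 2-fold and 4-fold changes were recovered for the comparison of controls (16262 contigs). Libraries of a group differed beyond sampling noise. Members and lists were chosen with earlier results of these data known.

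Named members had the 2 largest M, N, mean CPM, N minus M, smallest N minus M, changes called between controls in each direction, or differences from a component partner, and the 2 most alike contigs outside were added. Others were chosen after their values were seen, as said there. No cell type list could be used, since contigs carry no gene names.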

Additional observations from a re-analysis of the deposited data

Results flagged for a closer look

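A value was singled out when its gap to the nearest animal of its group took up an unusually large part of the group's range. This was looked for in 60 sets of values and found in 11. Chance gives about 1 in 20 of independent sets, but these share libraries and some members were named for values that replicate 1 enters, so no chance count is set beside the 11. Of them, 7 concern nkx1-1 RNAi replicate 1 as the lowest of 7 animals. They are its mean deviation over the members, -0.0123, its share of counts in the members, 0.281%, and its levels of dd_Smed_v4_13700_0_1 (1.43 CPM), dd_Smed_v4_12996_0_1 (4.64 CPM), dd_Smed_v4_1434_0_1 (141 CPM), dd_Smed_v4_28656_0_1 (1.5 CPM) and dd_Smed_v4_13603_0_1 (1.57 CPM).

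The other 4 fall on different animals. In the myoD RNAi group, dd_Smed_v4_1434_0_1 was lowest in replicate 5 at 205 CPM, dd_Smed_v4_28656_0_1 was highest in replicate 3 at 3.77 CPM, and dd_Smed_v4_3900_0_1 was highest in replicate 6 at 9.06 CPM. In the 12-feeding controls, dd_Smed_v4_13700_0_1 was highest in replicate 1 at 3.21 CPM.

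For 1 member, dd_Smed_v4_4065_0_1, edgeR called the nkx1-1 effect smaller than the myoD effect, by -0.28 ± 0.06 (log2, SE), where 0.256% of contigs were called in that direction. It was at 219 to 238 CPM in myoD RNAi animals against 116 to 135 CPM in controls, and at 185 to 233 CPM in nkx1-1 RNAi animals against 135 to 141 CPM in controls. The call was lost in 12 of 28 alternative settings. Both effects had chosen the members, and the rule asked for no overlap only in the myoD pair, so it is a description. Of the 105 members, 93 had a negative difference, with a median of -0.20.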

How the results depend on the processing

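No called result reversed its direction in the settings run; the mean deviation of nkx1-1 RNAi replicate 1, near 0, was -0.0123 by library totals and 0.09 with TMM scaling. The rule gave 70 to 155 contigs under other floors, thresholds, pseudocounts and scaling (93 with TMM scaling, 90 of them members), 98 to 122 when 1 library was left out, and 12 when no overlap was asked of the nkx1-1 pair too. With a minimum of 2-fold added to the adjusted p, 33 members were called for myoD (0.575% of contigs), 11 for nkx1-1 (0.271%), 0 between controls in either direction (0.517% higher, 0.295% lower) and 0 for the difference of effects (0.0699% lower). Leaving out 1 library gave 103 to 104 members for myoD (4.34% to 5.57% of contigs). For nkx1-1 it gave 47 without 12-feeding control replicate 4 (0.621%) to 95 without nkx1-1 RNAi replicate 1 (3.13%). For the difference it gave 0 to 1 (0.256% of contigs with all libraries). Between controls it gave 9 to 20 higher and 2 to 6 lower. The share of all contigs called between controls moved too. It was 14.7% for higher and 13.1% for lower without 12-feeding control replicate 5, and 21.4% and 21.1% without replicate 3. These ranges are therefore not a result about the members alone. The mean deviation in myoD RNAi animals was 0.91 with a pseudocount of 0.1, 0.79 with 1, and 0.77 as a median over members; TMM scaling gave a share of 0.267% in 12-feeding controls.

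Replicate numbers are shared between groups. The r of the deviations of same-numbered libraries had mixed signs (-0.302 to 0.185 for myoD, -0.182 to 0.0461 for nkx1-1, -0.115 to 0.321 for controls). The libraries were taken as unpaired in the main fits, and whether same-numbered libraries share a batch was not tested. With the replicate block, 104 members were called for myoD (4.71% of contigs). In replicates 1 to 5, 5 were called for nkx1-1 with the block (0.0488%) and 29 without it (0.311%), and 2 were called lower between controls either way (14% and 14.7%). Depth limits the weakest members: 6 averaged under 20 counts in a control group.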
